A study of Caenorhabditis elegans with 2 samples.

Results

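All 261 genes annotated as microRNA (miRNA) genes on the 6 nuclear chromosomes of Caenorhabditis elegans, out of 46890 annotated genes there, were examined for binding of the zinc finger protein K11D2.4. They were taken by biotype from the Ensembl annotation of WBcel235, whatever their binding, and RefSeq gave each of the 261 the same span. For each gene, the highest peak was sought among the peak summits lying within 200 bp of the gene and among those lying within 1000 bp upstream of its 5′ end. Binding was measured by chromatin immunoprecipitation and sequencing (ChIP-seq), in which an antibody pulls down sonicated chromatin and the recovered DNA is mapped to the genome. The series held 1 group of 2 biological replicates, whole young adults of strain RW12320 aged 62 hours after growth from starved first-stage larvae. In this strain CRISPR had joined TY1, EGFP and 3xFLAG tags to K11D2.4 at its own locus, so all animals carried the tagged allele, and the antibody was raised against GFP. No input or untagged library was analysed here, and unspecific recovery of DNA was not tested. The signal of a whole animal is summed over its tissues, so binding in few cells and weak binding in many cannot be told apart.

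MicroRNAs are short RNAs cut from hairpin precursors, first by Drosha in the nucleus and then by Dicer in the cytoplasm. Loaded into an Argonaute protein, a miRNA pairs with messenger RNAs mainly through its seed, bases 2 to 8 from its 5′ end, and lowers their translation or stability. Genes that share a seed form a family and can share targets. Many worm miRNAs lie in tandem and are made from 1 long precursor, or lie inside an intron of a protein-coding gene on the same strand, here called the host.

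Of the 23 miRNA genes with a peak in the windows, 9 belong to the mir-51 and mir-64 families, each with a seed of its own. The mature sequences of the seed-bearing arm are given 5′ to 3′ in RNA letters with the seed in capitals, from the Ensembl positions and the RefSeq genome of WBcel235. In the mir-51 family, mir-53 was the member without a peak in the windows, although its mature sequence has 23 of 24 positions in common with that of mir-52.
mir-51-5p: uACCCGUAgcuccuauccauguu
mir-52-5p: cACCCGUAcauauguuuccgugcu
mir-53-5p: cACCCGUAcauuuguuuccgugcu
mir-54-3p: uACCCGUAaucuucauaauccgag
mir-55-3p: uACCCGUAuaaguuucugcugag
mir-56-3p: uACCCGUAauguuuccgcugag

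In the mir-64 family, mir-63 was the member without a peak. The mature sequences of mir-63 and mir-64 have 18 of 23 positions in common. Those of 4 members are given.
mir-63-3p: uAUGACACugaagcgaguuggaaa
mir-64-5p: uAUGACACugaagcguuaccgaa
mir-66-5p: cAUGACACugauuagggauguga
mir-229-5p: aAUGACACugguuaucuuuuccaucg

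The next set shows genes with a peak beside relatives of the same seed without one. They are mir-80 beside mir-81 of the mir-58 family, mir-241 beside let-7 and mir-48 of the let-7 family, mir-45 beside mir-44, and mir-72 beside mir-73. The mature 3p arms of mir-44 and mir-45 are the same in all 21 letters, so the mature product does not tell which gene made it. The sequence of mir-34 follows, and mir-35 stands for the 8 genes of its seed, none of which had a peak.
mir-80-3p: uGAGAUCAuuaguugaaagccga
mir-81-3p: uGAGAUCAucgugaaagcuagu
mir-241-5p: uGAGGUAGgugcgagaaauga
let-7-5p: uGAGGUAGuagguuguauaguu
mir-48-5p: uGAGGUAGgcucaguagaugcga
mir-45-3p: uGACUAGAgacacauucagcu
mir-44-3p: uGACUAGAgacacauucagcu
mir-72-5p: aGGCAAGAuguuggcauagcuga
mir-73-3p: uGGCAAGAuguaggcaguucagu
mir-34-5p: aGGCAGUGugguuagcugguug
mir-35-3p: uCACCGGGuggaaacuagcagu

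DNA around 1 summit at each of 6 of these loci is shown next, on the strand of the miRNA and centred on the summit, from the same RefSeq genome. The first 3 windows have 150 bases, hold no hairpin base and stay in lower case. They lie upstream of mir-54 (X:13145173-13145322, build ce11, minus strand), of mir-80 (III:8865503-8865652, minus strand) and of mir-241 (V:14366659-14366808, minus strand). Their GC content was 64%, 59.3% and 62%. These are high values: the window of the same width at mir-34 had 35.3%. Over 100 bp at the summit the median of the 24 summits near miRNA genes was 48.5%.
mir-54 summit: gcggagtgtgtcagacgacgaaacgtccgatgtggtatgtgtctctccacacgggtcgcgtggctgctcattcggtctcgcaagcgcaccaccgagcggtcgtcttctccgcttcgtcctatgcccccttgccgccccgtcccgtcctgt
mir-80 summit: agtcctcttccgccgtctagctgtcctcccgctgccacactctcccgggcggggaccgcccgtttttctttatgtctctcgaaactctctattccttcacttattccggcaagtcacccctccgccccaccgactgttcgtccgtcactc
mir-241 summit: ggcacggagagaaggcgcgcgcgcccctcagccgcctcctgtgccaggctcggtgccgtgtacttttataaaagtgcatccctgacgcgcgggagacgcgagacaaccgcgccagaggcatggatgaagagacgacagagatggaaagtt

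At mir-51 (IV:11026016-11026315, minus strand) and mir-52 (IV:14033912-14034211, plus strand) the 300-base window reached the annotated hairpin, which is in capitals. The summit lay just before the hairpin of mir-51 and, for the lower of its 2 summits, inside that of mir-52.
mir-51 summit: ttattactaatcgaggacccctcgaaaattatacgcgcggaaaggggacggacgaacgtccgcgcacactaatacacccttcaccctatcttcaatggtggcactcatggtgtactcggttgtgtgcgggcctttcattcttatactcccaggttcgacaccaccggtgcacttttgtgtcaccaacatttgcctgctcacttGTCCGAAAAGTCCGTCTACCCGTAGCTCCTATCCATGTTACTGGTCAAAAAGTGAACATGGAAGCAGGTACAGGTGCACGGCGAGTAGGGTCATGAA
mir-52 summit: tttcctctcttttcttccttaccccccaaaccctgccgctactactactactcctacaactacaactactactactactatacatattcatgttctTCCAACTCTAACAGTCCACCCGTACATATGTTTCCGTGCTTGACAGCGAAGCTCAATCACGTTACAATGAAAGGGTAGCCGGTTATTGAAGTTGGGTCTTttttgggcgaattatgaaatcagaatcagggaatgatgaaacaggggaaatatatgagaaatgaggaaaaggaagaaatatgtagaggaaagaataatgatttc

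Upstream of mir-229 (III:2172089-2172388, plus strand), the window is centred on the lower of 2 overlapping summits, and the capitals mark the word TCTGCG, which is CGCAGA read on the other strand. This 6-letter word, chosen with earlier results of these data known, was searched on both strands and was in the 300-base window of 499 of the 1927 pooled peaks (25.9%). Within 50 bp of the summit it was present at 2 of the 24 peaks near miRNA genes (8.33%, 95% interval 1.03 to 27) and at 13.2% of all pooled peaks. The other peak near a miRNA gene with the word that close was the one upstream of mir-8186-2.
mir-229 summit: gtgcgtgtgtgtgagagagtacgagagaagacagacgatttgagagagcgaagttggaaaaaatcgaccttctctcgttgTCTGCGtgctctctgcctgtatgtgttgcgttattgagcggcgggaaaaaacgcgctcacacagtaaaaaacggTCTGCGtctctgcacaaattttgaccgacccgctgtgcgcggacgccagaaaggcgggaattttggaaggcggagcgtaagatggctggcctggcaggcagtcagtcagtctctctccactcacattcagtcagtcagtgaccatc

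Of the 261 miRNA genes, 12 had a summit of the pooled list within 200 bp (4.6%, 95% exact Clopper-Pearson interval 2.4 to 7.89), 21 had one within 1000 bp upstream (8.05%, 5.05 to 12), and 23 had one in either window (8.81%, 5.67 to 12.9). The pooled list is the authors' conservative list of 1927 peaks that passed a threshold on the irreproducible discovery rate, which asks whether a peak holds its place in the ranking when the experiment is repeated. The same windows at the starts of protein-coding genes held a summit for 2.21% within 200 bp, 4.9% upstream and 5.33% in either. For all other annotated genes together the shares were 2.39%, 3.15% and 4.25%. The miRNA share was above the share of protein-coding genes in each window. For either window, the interval began at 5.67%, just above 5.33%. Genes of a cluster can count the same peak, however. With each cluster counted once, 18 of 222 units had a summit (8.11%, 4.88 to 12.5), an interval that includes the protein-coding share. The intervals cover counting error only, and no test was run on the difference.

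The tRNA, snoRNA and snRNA genes had larger shares. A summit in either window was found for 27.9% of 612 tRNA genes, 24.3% of 346 snoRNA genes and 16.3% of 129 snRNA genes. It was found for 0.799% of 2128 pseudogenes and 0.749% of 15363 piRNA genes. The miRNA genes lay between these groups, and the ncRNA class at 6.38% and the lincRNA class at 5.67% were nearest to them. None of the 24 summits near miRNA genes lay within 200 bp of a tRNA, snRNA or snoRNA start. The share of all 1927 pooled peaks that do is not given here, so this is a description of the 24 only.

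**Figure D1:**
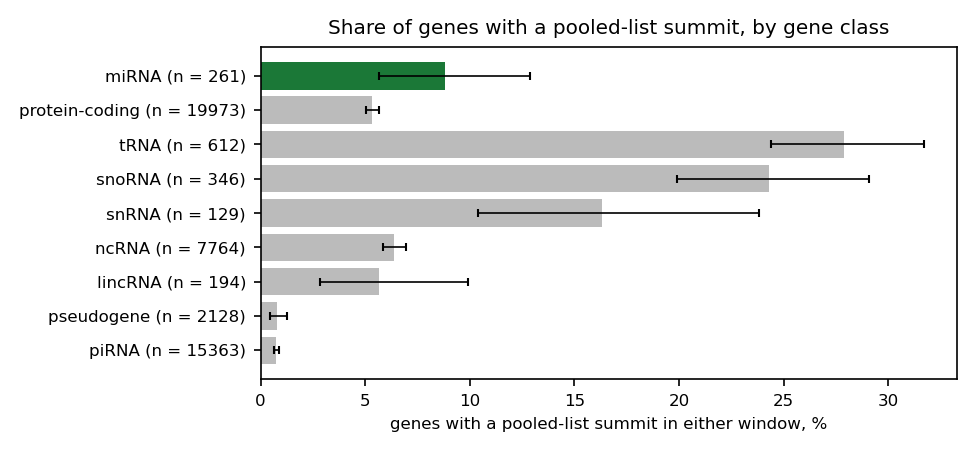
Share of genes with a pooled-list summit within 200 bp or within 1000 bp upstream, by annotated class; bars give percent, lines the exact 95% interval and n the number of genes. The miRNA bar at 8.81% stands above protein-coding genes at 5.33% and below tRNA genes at 27.9%.

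Around the 5′ end, summits were spread differently over miRNA and protein-coding genes, as a description with no test. In bins of 200 bp from the 5′ end, protein-coding genes peaked at 1.76% in the bin just upstream and fell to 0.416% in the bin just downstream. For miRNA genes the bins ran from 0 to 2.68% with no single high bin. The bin just upstream and the bin from 400 to 600 bp downstream both stood at 2.68% (7 of 261 genes each, 95% interval 1.08 to 5.45). Protein-coding genes had 0.195% in that downstream bin. From 2000 to 1800 bp upstream the shares were 1.92% and 0.436%, so the higher miRNA share was not limited to the windows used here. The reverse held from 1600 to 1400 bp upstream (0.383% beside 0.446%) and from 1000 to 1200 bp downstream (0 beside 0.335%). Genes of a cluster can count the same summit in a bin, so these small counts are not of independent genes. The annotated span was that of the hairpin for 254 of the 261 genes, so the 5′ end is not the start of the longer precursor. The spans had a median of 95 bp, from 52 bp to 1732 bp, the longest being let-7.

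**Figure D2:**
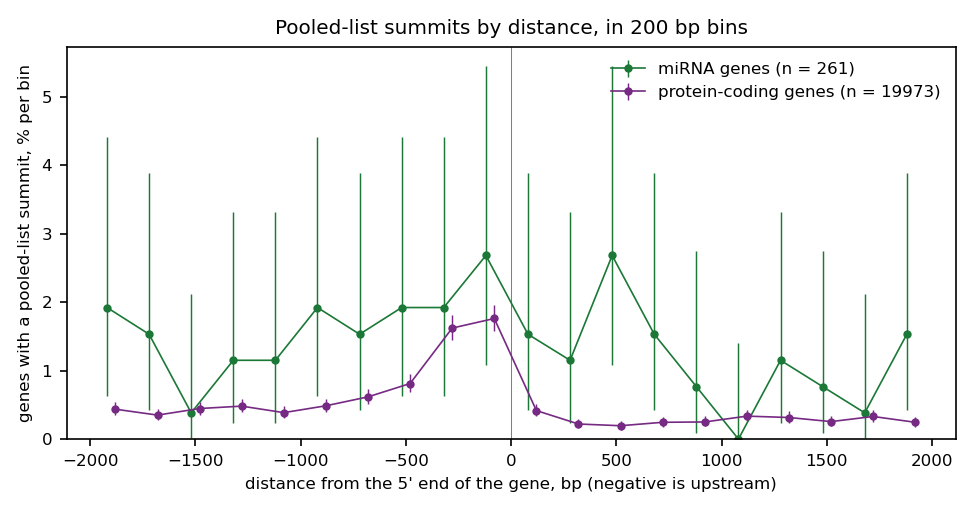
Share of genes with a pooled-list summit in each 200 bp bin from 2000 bp upstream to 2000 bp downstream of the 5′ end; points give percent and lines the exact 95% interval. Protein-coding genes rise to 1.76% in the bin before the start, while miRNA genes stay between 0 and 2.68% across all bins.

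The 23 genes drew on 24 summits, which formed 21 separate regions after overlapping peaks were joined. They were 1.25% of the 1927 pooled peaks, while the miRNA windows covered 0.297% of the genome. Their deposited signal, the authors' own peak height, had a median of 98.8 and ran from 7.62 to 275, beside a median of 101 for all pooled peaks. Of the 24, 11 were above that overall median, so the peaks near miRNA genes were of middling height for this list. Upstream of every gene they were counted for lay 18, and 16 had a miRNA gene as the nearest annotated gene start of any class but piRNA. Counting every annotated transcript start, 9 of the 24 summits lay within 1000 bp of a protein-coding start. Of the 24, 6 were nearer to one than to the 5′ end of the miRNA gene. All 9 were at mir-354, mir-5549, mir-8186-2, mir-4929, mir-5595 and mir-4932. The matching shares over all 1927 pooled peaks are not given here. At the mir-51, mir-64, mir-58 and let-7 families, mir-34, mir-72, mir-45 and mir-2, the nearest protein-coding transcript start was at least 1982 bp from the summit. An annotated ncRNA gene start was nearer to the summit than the 5′ end of the hairpin was at several of them. This does not hold for the hairpin as a whole, whose nearer edge at mir-45 was 127 bp from the summit. These were F56A12.8 at mir-241, 123 bp from the summit, F36H1.17 at mir-51, 53 bp away, and ZK930.13 at mir-45, 135 bp away. At mir-52 an ncRNA start lay 45 bp from the upstream summit and another 28 bp from the other summit.

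The family with the most peaks was the mir-51 family, whose 6 members share a seed with the miR-100 family of other animals and are needed together in the embryo. Of its members, 5 had a summit, from 3 loci. The highest lay 154 bp upstream of mir-54 (X:13144996-13145094, minus strand), the first of 3 hairpins in a row. Its pooled signal was 209, rank 224 in the pooled list, and its ranked-list signal was 105 in replicate 1 and 95.1 in replicate 2. Both replicates were high here relative to the other miRNA genes, and both kept the peak in their own thresholded lists. The same summit lay 324 bp upstream of mir-55 and 461 bp upstream of mir-56. The nearest annotated gene start was that of an ncRNA gene, F09A5.11, 23 bp away, and the nearest protein-coding start, of F09A5.3, was 3647 bp away. A further summit on the other side of the 3 hairpins lay 268 bp past the 5′ end of mir-56, with a pooled signal of 107. Its signal was 40.6 in replicate 1 and 63.4 in replicate 2, a log2 ratio of -0.64 that was the lowest among these peaks. That summit was also 311 bp upstream of mir-55b, a hairpin annotated on the opposite strand.

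Away from the X chromosome, mir-52 (IV:14034008-14034107, plus strand) had a pair of summits. One lay 691 bp upstream with a pooled signal of 114, from 65.5 in replicate 1 and 52.6 in replicate 2. The other lay 54 bp past the 5′ end, inside the hairpin, with a pooled signal of 103, from 45.4 in replicate 1 and 56.3 in replicate 2. The replicates thus ordered these summits in opposite ways, and replicate 2 alone kept both in its own list. At mir-51 (IV:11026013-11026112, minus strand) the summit lay 54 bp upstream with a pooled signal of 99.7, from 56.8 in replicate 1 and 36.7 in replicate 2. This log2 ratio of 0.63 was the highest among the peaks near miRNA genes, and neither replicate kept the peak in its own thresholded list. The neighbour of mir-51 on the same strand, mir-53, had no pooled summit in its windows, the nearest being 1427 bp away, and ranked summits of 24.1 and 23 in replicates 1 and 2.

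**Figure D3:**
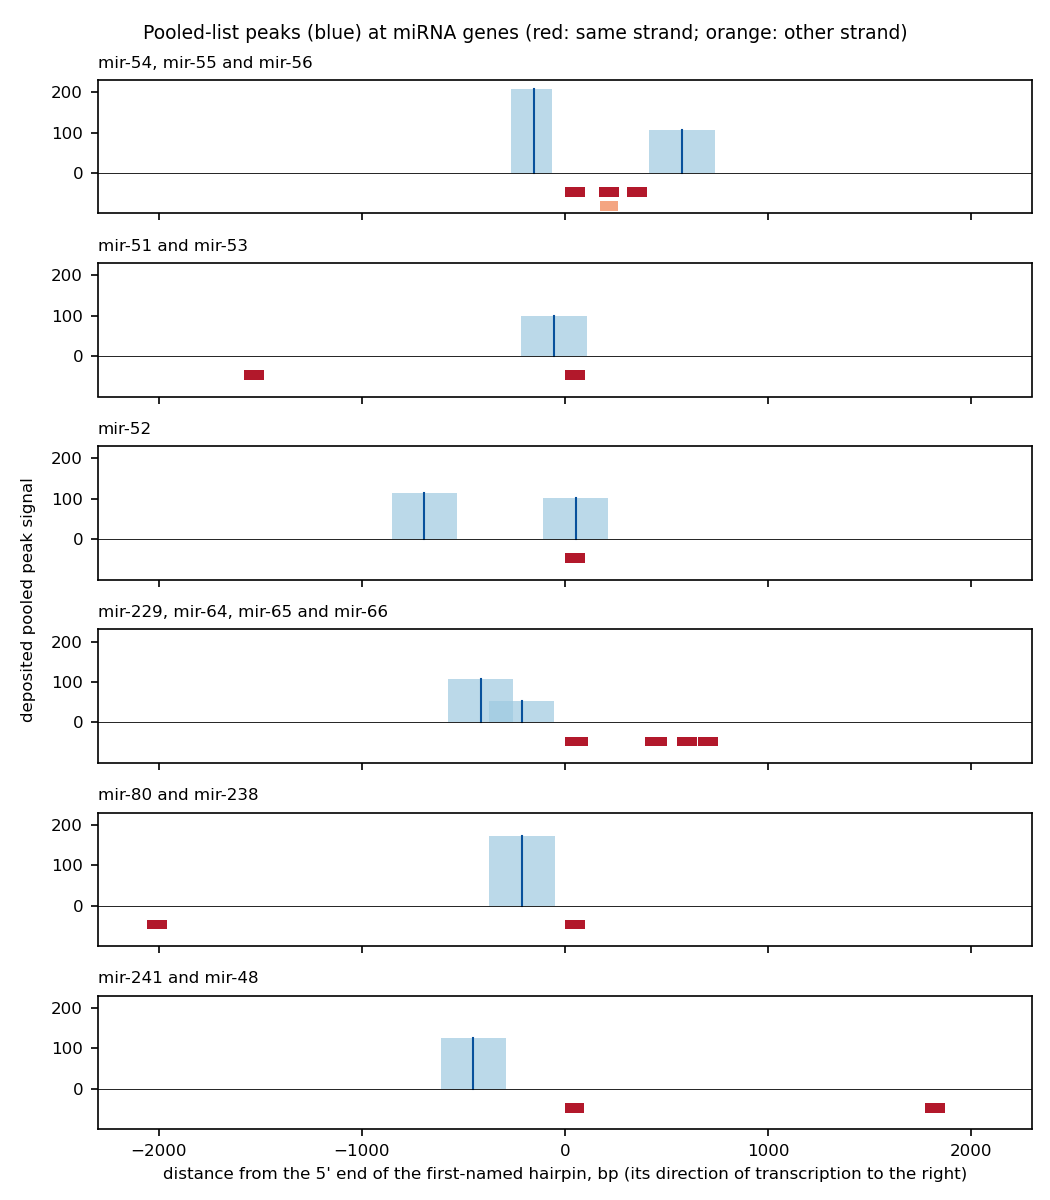
Pooled-list peaks (blue blocks, height is the deposited signal, line is the summit) at 6 miRNA loci, against distance in bp from the 5′ end of the first-named hairpin; red boxes are hairpins on its strand and orange boxes on the other. The peak before mir-54 reaches 209 and the one before mir-80 reaches 173, and mir-53 and mir-238 lie upstream of their neighbour's peak with none of their own.

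The mir-64 family had a summit in the windows of 4 of its 5 members, all 4 from 1 cluster (III:2172452-2173206, plus strand) in the order mir-229, mir-64, mir-65 and mir-66. The peaks lay before the first hairpin. The higher summit, 414 bp upstream of mir-229, had a pooled signal of 108, from 51.4 in replicate 1 and 56.9 in replicate 2. The second, 213 bp upstream, overlapped it, had a pooled signal of 54.1, and met the same peak in each replicate, so it adds no separate replicate value. Replicate 2 alone kept that peak in its own list. Counted as 1 locus, the family contributes 1 bound region, not 4. The remaining member, mir-63 on X, had no ranked summit of replicate 1 in its windows and one of 11.6 in replicate 2.

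The mir-58 family, related to bantam of Drosophila, includes some of the most abundant worm miRNAs. Of its 9 listed genes, 6 share the seed GAGAUCA, and the annotated 3p arms of mir-58a, mir-2209b and mir-2209c have other seeds. Only 1 of the 9 had a summit. That gene was mir-80 (III:8865270-8865367, minus strand), with a summit 211 bp upstream and a pooled signal of 173, rank 326. The signal was 88.5 in replicate 1 and 72.0 in replicate 2, and both own lists kept it. The nearest protein-coding start was 11550 bp away. The other members were lower. At mir-58a, replicate 2 had an upstream peak of 58.5 in its own list, 318 bp away, while replicate 1 had 29.1 and no pooled summit was present. For mir-81, mir-82, mir-58b, mir-58c, mir-2209a, mir-2209b and mir-2209c, no ranked summit exceeded 28.7.

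The let-7 family times larval development, and mir-241 acts with mir-48 and mir-84 in the hypodermis before let-7 does. Of its 7 listed members, 5 share the seed GAGGUAG, and mir-793 and mir-794 do not. Among the 7, mir-241 (V:14366188-14366283, minus strand) had a pooled summit, 451 bp upstream with a signal of 124. The replicates were almost equal, at 58.6 and 59.2. Its neighbour mir-48, downstream on the same strand, had ranked summits of 26.2 and 21.3 in replicates 1 and 2, with the nearest pooled summit 2225 bp away. At let-7 a ranked summit of 29.3 was present in replicate 1 and none in replicate 2. At mir-84 the reverse held, with none in replicate 1 and 26.5 in replicate 2. The ranked summits of mir-793 and mir-794 stayed at 14.0 and 13.4, in replicate 2 only, and mir-795 had none. For all these relatives the values were below the 51.4 and 56.9 that were the medians of the genes with a pooled summit in replicates 1 and 2. The choice of the pooled list partly fixes this, as the relatives have no pooled summit.

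The lin-4 gene, founder of the class and repressor of lin-14, had no pooled summit, and neither did its relative mir-237. A ranked summit within 200 bp of lin-4 reached 29.7 in replicate 1 only. At mir-237 the nearest pooled summit lay 233 bp past the gene, just outside the window. The mir-35 family, made in oocytes and embryos and needed for embryogenesis, had none at any of its 8 genes. In the upstream windows of its 7-gene cluster the highest ranked summit was 17.4 in replicate 1 and 44.1 in replicate 2. Upstream of mir-42, which lies outside that cluster, it was 33.7 in replicate 1 and 25.3 in replicate 2. For mir-1 of muscle, mir-124 of sensory neurons, lsy-6 of taste neuron asymmetry and mir-71, which promotes long life, no pooled summit was found in the windows. At mir-71 the ranked signal was 29.6 in replicate 1 and 22.1 in replicate 2 within 200 bp. The nearest pooled summit lay 354 bp from mir-71, outside its windows. No ranked summit was found in either replicate at lsy-6 or at mir-60. For mir-1, mir-85, mir-124, mir-228, mir-240 and mir-786 none exceeded 26.9.

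Among single conserved miRNAs, mir-34 (X:2969752-2969848, minus strand), which acts in stress responses, had a summit 526 bp upstream with a pooled signal of 97.2. The signal was 35.9 in replicate 1 and 51.2 in replicate 2, and replicate 2 alone kept it in its own list. At mir-72 (II:2452838-2452936, plus strand) the summit lay 127 bp upstream with a pooled signal of 76.8, from 42.2 and 36.4. At mir-45 (II:11880944-11881039, minus strand) it lay 222 bp past the 5′ end, outside the hairpin, with a pooled signal of 83.5, from 45.0 and 36.8. Its relative mir-44, which makes the same mature product, had only upstream ranked summits of 33.7 and 25.3. At mir-2 of an invertebrate family the summit lay 197 bp upstream with a pooled signal of 81.8, from 36.4 and 41.9. Neither replicate kept the peaks of mir-72, mir-45 or mir-2 in its own list. Among their relatives and the mir-238 family, namely mir-61, mir-247, mir-43, mir-250, mir-797, mir-73, mir-74, mir-238, mir-239a and mir-239b, no pooled summit was found. The highest ranked signals there were 35.1 in replicate 1, at mir-61, and 50.9 in replicate 2, at mir-239b.

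Over a list of 61 miRNA genes of well-studied families, 15 had a pooled summit in either window (24.6%, 14.5 to 37.3), compared with 8 of the other 200 genes (4%, 1.74 to 7.73). The list was drawn from textbook families with earlier results of these data known, and 9 of the 15 belong to the mir-51 and mir-64 families. Gene numbers give a coarser division. Of 138 genes numbered below 1000, with let-7, lin-4 and lsy-6, 17 had a summit (12.3%), and of 123 with higher numbers 6 had one (4.88%). By chromosome the share ran from 3.57% of 28 genes on V to 25.9% of 27 genes on III, where the mir-229 cluster supplied 4 of the 7.

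At the genes outside the list, most peaks had a protein-coding start close by. The highest pooled signal of all, 275, rank 135, lay 856 bp upstream of mir-354 and 153 bp from the start of ekl-4, with 154 in replicate 1 and 118 in replicate 2. The summit 3 bp upstream of mir-5549 had a pooled signal of 170, from 111 and 76.1, and lay 165 bp from the start of rfc-4, a subunit of the replication clamp loader. The summit of mir-4932, with a pooled signal of 85.9, lay 1 bp from the start of klp-16, a kinesin. That of mir-8186-2, at 124, lay 495 bp from gmeb-1. The intronic mir-4929 had summits of 102 and 74.8, which lay 237 bp and 59 bp from a transcript start of its host E01G4.3. The summits of mir-5595, at 88.1, 84.0 and 7.62, lay 270 to 520 bp from a transcript start of nurf-1, a chromatin remodelling gene on the opposite strand. At mir-2214 the summit was 38 bp upstream, with 97.9 in the pooled list, 56.7 in replicate 1 and 42.5 in replicate 2.

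**Figure D4:**
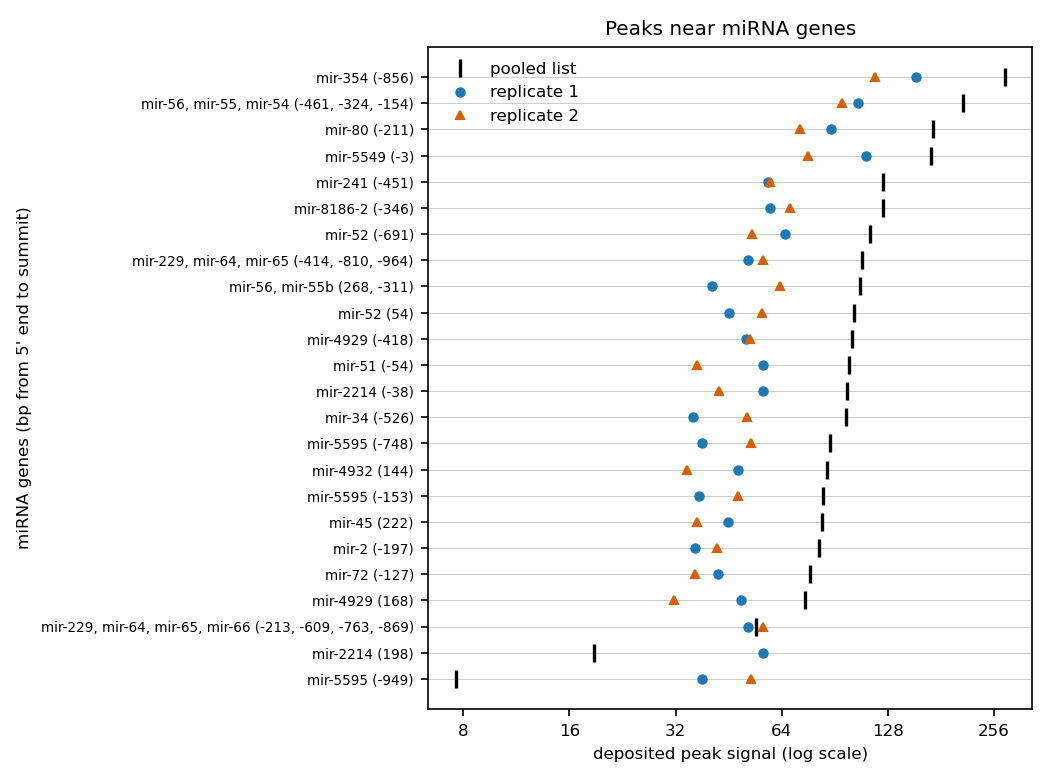
Deposited signal of the 24 pooled-list peaks near miRNA genes (black bars) and of the overlapping ranked peak in replicate 1 (circles) and replicate 2 (triangles), on a log axis, with the distance from the 5′ end in brackets. The replicates lie close together at most peaks, as the choice of the pooled list partly fixes. The lowest 3 bars are pooled peaks that overlap a higher one and repeat its replicate values, except that the lower mir-2214 peak met no ranked peak of replicate 2.

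Across the 23 of these peaks that met a ranked peak of both replicates, the log2 signals had a Pearson correlation of 0.72 and a Spearman correlation of 0.594. These points share libraries and, for the overlapping peaks, replicate values, so the correlations are a description. The pooled list keeps peaks that hold their place in the ranking of both replicates, so part of the closeness is fixed by that choice. The log2 ratio of replicate 1 to replicate 2 had a mean of 0.04 and an SD of 0.39, and replicate 1 was higher at 11. Neither replicate was regularly the higher one. Beside mir-56 and mir-51, the largest ratio was 0.62 at the summit 168 bp past the 5′ end of mir-4929, with 48.9 in replicate 1 and 31.8 in replicate 2. Over the 41 genes with a ranked summit of both replicates within 200 bp, the correlations were 0.592 and 0.498 and the SD was 0.70. The 2194 protein-coding starts treated alike gave 0.722, 0.56 and an SD of 0.65. These last 2 sets did not have to pass the pooled threshold, so their SD is not on a par with that of the 23 peaks.

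The ranked lists, of 41734 peaks in replicate 1 and 42705 in replicate 2, are long lists without a threshold. In them 29.1% of miRNA genes in replicate 1 had a summit within 200 bp, beside 22.6% of protein-coding starts, and 33% in replicate 2, beside 23.9%. A ranked summit in either window was found for 176 of the 261 genes in at least 1 replicate and for 97 in both. For the 238 genes with no pooled summit, 48.3% had a ranked summit in replicate 1, with a median signal of 22.2 and a highest value of 46.8, at mir-77. In replicate 2 it was 47.1%, with a median of 21.6 and a highest value of 58.5, at mir-58a. Genes with a pooled summit had medians of 51.4 and 56.9, as the choice of the pooled list fixes. Taking the lower of both replicates within 200 bp, the 5 highest genes with no pooled summit were mir-4936, mir-8211, mir-50, mir-4806 and mir-239b. At mir-4936 (III:3249151-3249260, plus strand) the ranked signals were 30.9 and 27.1, ranks 5124 and 7028 of the lists, so even the first of them stood far down.

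Thresholded lists of single replicates were shorter, with 959 peaks in replicate 1 and 1141 in replicate 2. Replicate 1's list held a summit for 8 miRNA genes and replicate 2's for 17, and 7 genes had one in both. Of the 23 genes with a pooled summit, 7 had a peak of both own lists and 6 of neither. Of the 24 peaks, 5 overlapped own peaks of both replicates and 9 of neither. The pooled list therefore rests in part on peaks that single replicates did not retain. The matching shares over all 1927 pooled peaks are not given here. Both own lists are shorter than the pooled list, so these counts do not set the miRNA peaks apart from the rest.

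Clusters were defined as miRNA genes on 1 strand with gaps of at most 2000 bp. There were 22, of which 5 had a pooled summit in the windows of at least 1 gene (22.7%, 7.82 to 45.4). Of the 200 miRNA genes that stood alone, 13 had one (6.5%, 3.51 to 10.9). A cluster counts through the windows of any of its genes, so it has more room for a summit than a lone gene. Per gene, 10 of the 61 genes in clusters had one (16.4%, 8.15 to 28.1), but genes of a cluster can count the same summit. The 5 clusters were those of mir-54, mir-55 and mir-56, of mir-229, of mir-80 and mir-238, of mir-48 and mir-241, and of mir-51 and mir-53. In the clusters of mir-54 and mir-229 every gene had a summit in its windows, whereas in the other 3 clusters 1 of the 2 genes did. The summit lay before the last hairpin to be transcribed at mir-80 and mir-51, and before the first at mir-241. The largest cluster, mir-35 to mir-41 with 7 genes, and that of 6 genes from mir-4807 to mir-4810a on X had none.

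Of the 261 genes, 74 lay in a protein-coding host on the same strand, 68 of them in an intron, and 9 of the 74 had a pooled summit in their own windows (12.2%, 5.71 to 21.8). Among 155 genes that lay in no protein-coding gene, 10 had one (6.45%, 3.14 to 11.5). The 9 include mir-229, mir-64, mir-65 and mir-66, which are 1 locus in 1 host, gcn-1. They also include mir-55b, counted through the summit past mir-56 on the other strand. The share in hosts thus rests on fewer loci than genes, while the intervals treat genes as independent. The 67 same-strand hosts were examined at their own promoters, meaning the stretch that begins 1000 bp before a transcript start and ends 200 bp after it. Of these, 7 had a pooled summit (10.4%, 4.3 to 20.3), beside 5.78% of all protein-coding genes. The highest was at gmps-1, which makes GMP and holds mir-2216, with a pooled signal of 362 from 172 in replicate 1 and 191 in replicate 2. Next was the mir-354 peak already described, which lies 244 bp from the start of its host rps-20, a ribosomal protein gene. At ras-1, host of mir-4806, the signal was 136, and at rpl-24.1, a ribosomal protein gene that holds mir-353, it was 110.

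At several hosts the promoter peak and the miRNA lay far apart. The gcn-1 promoter, of a gene that regulates translation under amino acid starvation, had a summit of 78.6 located 291 bp upstream of its start. The hairpin of mir-229 lies 20507 bp into gcn-1, with the separate and higher peak of 108 just before it. The ppfr-1 promoter had a summit of 77.6, 313 bp upstream. The intronic mir-71 lies 9962 bp from that start and mir-2, with its own summit of 81.8, lies 17117 bp from it. At E01G4.3, host of mir-4929, the promoter summit of 102 was the same peak that lay upstream of the miRNA. Hosts on the opposite strand numbered 26, of which 5 had a promoter summit (19.2%, 6.55 to 39.4), beside 5.78% of all protein-coding genes, with no test run. Of the 34 miRNA genes in them, 4 had a summit in their own windows (11.8%, 3.3 to 27.5). These were mir-5595 and mir-54, mir-55 and mir-56, and the last 3 lie in the same host, F09A5.3, and count the same peak.

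Genes that make miRNAs or carry out their work were read from a list of 30, drawn up with earlier results known. A pooled summit was found in the promoter of 9 (30%, 14.7 to 49.4), beside 5.78% of protein-coding genes. For 5 of the 9 the gene's own start was the nearest coding start (16.7% of the 30, 5.64 to 34.7). Each replicate's own thresholded list held a promoter summit for 6 of the 30 (20%, 7.71 to 38.6). No shares of these stricter kinds over all genes are given here. The core enzymes had none. Those were drsh-1 (Drosha) and its partner pash-1, dcr-1 (Dicer), and the Argonautes alg-1 and alg-2. Among cofactors of the silencing complex, vig-1 had a pooled signal of 295, from 155 in replicate 1 and 134 in replicate 2. The GW182 protein gene ain-1 had 153, from 77.9 and 79.6, and the helicase gene cgh-1 had 146, from 69.1 and 79.4. At hrpk-1, an hnRNP K gene, the value was 180, from 96.1 and 85.1. The nuclear export receptor gene xpo-1 had 59.0, rank 1744, from 39.7 and 38.5, and neither replicate kept it in its own list.

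The highest value of the list, 586 at rank 33, stood at nhl-2, which helps the silencing complex, with 288 in replicate 1 and 289 in replicate 2, but the summit was nearer to the start of tag-340. The peak at lin-46, a heterochronic gene, had 232 and lay 26 bp from the start of R186.8. Those at ccf-1, a deadenylase gene, with 72.1, and alg-5, an Argonaute gene, with 60.1, were nearer to trap-4 and his-68. These 4 peaks cannot be assigned to 1 gene from position alone.

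The DNA at most of the 24 summits near miRNA genes was richer in GC than its flanks. Over 100 bp at the summit the median GC content was 48.5%, beside 40.2% from 200 to 300 bp away, and the centre was above the flanks at 19 of 24 (79.2%). For all 1927 pooled peaks the medians were 48% and 35.5%, and the centre was above the flanks at 85.2%. The median of the flanks was thus higher at the miRNA peaks than over the whole list, and no test was run on this.

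Distances close to the window limit were few. Just inside 200 bp stood mir-2 at 197 bp and the second summit of mir-2214 at 198 bp, with a pooled signal of 18.8. Just outside stood mir-80 at 211 bp and mir-229 at 213 bp, both counted through the upstream window, and mir-237 at 233 bp, counted in neither. The median distance from a miRNA gene to the nearest pooled summit was 14610 bp, and 73 of the 261 genes had one within 5000 bp. The same values for other genes are not given here.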

How the data were processed

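ChIP-seq peak lists of 2 biological replicates of 1 group were used, on build ce11 per the labels. Each list gives a signal per peak, the authors' own value of unstated scaling, and a deposited score that reaches 1000 and was taken to follow the ranking by irreproducible discovery rate. The lowest score in the pooled list was 830. For the aligner, the peak caller and their versions, the sources used here name none. The depth is unknown, as no read totals were analysed here. The pooled conservative thresholded list was the main one. Each replicate's ranked and own thresholded lists gave the replicate values, taken from the peak that overlaps the pooled peak. Chromosome names and lengths of WBcel235 were checked against the peaks. Summits were counted in windows around Ensembl release 115 genes, with exact Clopper-Pearson 95% intervals that treat genes as independent. Background windows at other genes started at the gene start and had the median miRNA length of 95 bp. Counting was tested on simulated peaks. The mature sequence of 1 family member is not reported here. Members and lists were chosen with earlier results of these data known. The text describes every listed family, every peak near a miRNA gene, and the same-strand hosts and pathway genes with a peak. Alternatives were the second pooled list, the upper 50% of peaks by signal, single replicates, other windows and an interval overlap. As all samples form 1 group, groups were not compared, and nothing measures the spread beyond these 2 samples. Python 3.11.15, numpy 2.4.6, pandas 2.3.3 and scipy 1.17.1 were used.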

Additional observations from a re-analysis of the deposited data

Results flagged for a closer look

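The authors' second pooled list of 1984 peaks, which the counts above do not use, held a summit for 3 miRNA genes that had none in the conservative list. At mir-90 the summit lay 338 bp upstream with a signal of 77.7 in that list, and the ranked signals were 23.2 in replicate 1 and 40.8 in replicate 2. At mir-77 it lay 202 bp upstream with a signal of 71.3, and the ranked signals were 46.8 in replicate 1 and 27.2 in replicate 2. At mir-239b it lay 216 bp past the 5′ end with a signal of 64.9, and the ranked signals within 200 bp were 23.1 in replicate 1 and 50.9 in replicate 2. None of the 3 was in either replicate's own thresholded list. With no control library analysed here, these values have no background measured the same way.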

How the results depend on the processing

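Of 38 alternative values, 21 stayed within 1.5 times the reported count or within 1 SD. The count of 12 genes with a summit within 200 bp was 4 among the upper 50% of peaks by signal, 6 with a window of 100 bp, 23 with 500 bp, 20 when any overlap of the peak counted, 7 when the nearest start had to be a miRNA gene, and 3 to 4 with a single replicate's own list. The 21 genes with an upstream summit became 6 to 17 with a single replicate's own list, the lower value being without replicate 2. The 23 genes in either window became 14 among the upper 50%, 15 when the nearest start had to be a miRNA gene, and 8 without replicate 2 against 17 without replicate 1. Counting only pooled peaks that both own lists also held, which was chosen after seeing the data, gave 2, 7 and 7. The 7 hosts with a promoter summit became 12 on either strand and 4 with either replicate's own list. The cause of these moves was not tested, apart from narrower windows and shorter lists holding fewer summits by construction. No paired analysis was possible because there was 1 group only. Unknown depth leaves the absence of a peak undefined as absence of binding.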
